A study of Mus musculus with 4 samples.

Results

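The aminoacyl-tRNA synthetases described here are 36 nuclear genes, chosen by symbol and kept where the mean over 4 libraries of mouse cortex reached 50 normalised counts. All 36 named genes were among the 39179 genes in the tables, all 36 passed that minimum, as did 13550 genes in all, and none was listed at 0 in a library. Of the 36, 20 code for enzymes of the cytosol and 16, whose names end in 2, for enzymes of the mitochondrion. The rule uses symbols and the mean level, not a difference between libraries.

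The tissue was brain cortex of F1 C57Bl6/J x Sv129 mice, either wildtype or knockout for BK, a potassium channel opened by calcium and voltage, with littermates as the wildtype animals. Each genotype gave a baseline group left undisturbed (WT BL, KO BL) and a group kept awake by gentle handling for 4 h from light onset (WT SD, KO SD), all taken at zeitgeber time 4. Every group was 1 library made from a pool of 4 animals, so that no group had replicates and no difference between a pair of libraries could be tested. Neither the age and sex of the animals nor the way the channel was deleted is given in the sources used here.

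Each synthetase joins 1 amino acid to the tRNAs that carry it to the ribosome. Cytosolic translation and the translation of the few proteins encoded by mitochondrial DNA use largely separate enzymes, although in mammals Gars and Kars make both forms from a single gene, and Eprs codes for a fused enzyme for glutamate and proline. A number of cytosolic enzymes sit together in a multi-synthetase complex held by scaffold proteins, and in mammalian cells many cytosolic synthetase genes are known targets of ATF4, the transcription factor of the integrated stress response, which binds C/EBP-ATF response elements near their start sites.

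Promoter sequence was at hand for 27 of the 36 genes, as 28 windows from 250 bases before to 50 after the RefSeq start site (build GRCm38.p6). No window was found for Cars, Hars, Lars, Nars, Rars, Vars, Wars, Hars2 and Pars2. The C/EBP-ATF response element, searched as TGATGNAA on both strands, was in 5 of 13 cytosolic windows (38.5%) and in 0 of 15 mitochondrial windows, against 3.97% of all 32851 windows of that length. The 30-base stretches around the matches in Gars, Iars, Tars and Yars are shown because this element is the known binding site of ATF4, each read 5′ to 3′ on the strand that carries the element, with the element in capitals:
Gars, chr6:55037960-55037989, minus strand: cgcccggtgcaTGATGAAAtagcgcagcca
Iars, chr13:49682126-49682155, minus strand: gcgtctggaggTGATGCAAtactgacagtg
Tars, chr15:11399655-11399684, plus strand: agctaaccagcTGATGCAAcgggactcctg
Yars, chr4:129189895-129189924, plus strand: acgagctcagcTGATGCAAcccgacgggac

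The matches in Iars, Tars and Yars shared the letters TGATGCAA, and that in Gars read TGATGAAA. Relative to the start site, the elements lay at bases -30 to -23 in Gars, 8 to 15 in Iars, -15 to -8 in Tars and 4 to 11 in Yars. The E-box CACGTG, whose both strands read alike, was in 4 of 13 cytosolic and 1 of 15 mitochondrial windows, against 7.15% of all windows. The NRF1 core, GCGCA joined to TGCGC and read alike on both strands, which is named for a factor that drives many nuclear genes of mitochondrial proteins, was in 0 of 28, against 0.971% of all windows. A match describes the letters of the window, and binding was not measured.

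The libraries held 34.5 M to 38.7 M normalised counts (M, 1e6), from an estimated 27.7 M to 42.0 M reads. WT SD stood apart, with correlations of 0.877 to 0.911 to the other libraries against 0.956 to 0.972 among those, and mitochondrially encoded transcripts took 12.7% to 13.5% of the counts in 3 libraries and 19.4% in KO SD. The knockout sleep pair and the baseline pair do not use WT SD. Kcnma1, the gene of the BK pore, was at 614 (WT BL), 177 (WT SD), 447 (KO BL) and 491 (KO SD), so its total did not separate the genotypes, which are named here as labelled. Markers of excitatory and inhibitory neurons, astrocytes, oligodendrocytes and microglia were all above 0 in every library. Summed over each marker list, astrocyte markers ranged from 88583 in KO BL to 173806 in KO SD, oligodendrocyte markers from 27620 in WT BL to 56441 in WT SD, and red blood cell markers from 3110 in KO SD to 13376 in KO BL. Excitatory neuron markers ranged from 113958 in WT SD to 231888 in KO BL, and choroid plexus markers from 87.1 in WT SD to 660 in KO SD. Their part in the results below was not tested, and in bulk tissue fewer cells of a type and less RNA per cell cannot be told apart.

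Per kilobase of transcript, and averaged over the libraries, cytosolic synthetases had a median level of 1184 normalised counts and mitochondrial synthetases a median of 267. The cytosolic levels ran from 334 for Tars, the threonine enzyme, to 3069 for Sars, the serine enzyme. The mitochondrial levels ran from 45.8 for Ears2, the glutamate enzyme, to 647 for Rars2, the arginine enzyme, apart from Lars2 at 8390. Lars2, the mitochondrial leucine enzyme, thus had the highest counts per kilobase of all members, and without it the mitochondrial median was 215. The order per kilobase rests on the deposited transcript width. Rars2 had a mean of 559 normalised counts at a width of 864 bases, and Iars2 a mean of 1549 at 3172 bases.

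**Figure D1:**
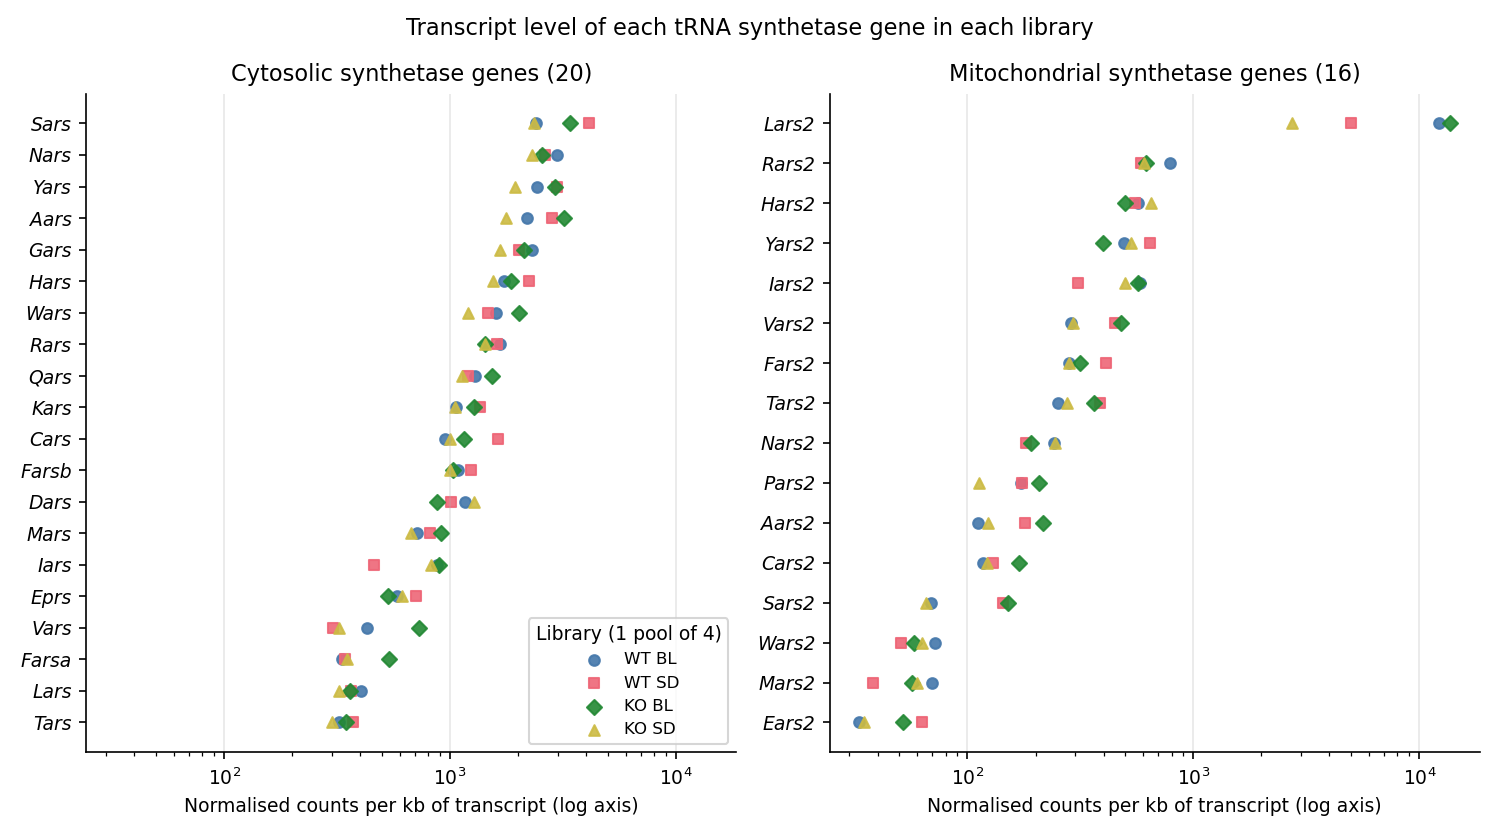
Level of each of the 36 genes in normalised counts per kilobase of transcript (log axis) in each of the 4 libraries, for the cytosolic and the mitochondrial set. Lars2 lies above every other member in all 4 libraries, and its 2 sleep-deprived libraries lie below its 2 baseline libraries.

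Lars2 (chr9:123366940-123462664, plus strand) was at 47230 normalised counts (WT BL), 19270 (WT SD), 53160 (KO BL) and 10590 (KO SD). Both baseline libraries lay above both sleep-deprived libraries, an order whose share over all genes was not counted. The sleep-deprived value was 2.45-fold lower in wildtype and 5.02-fold lower in knockout cortex. On the log2 scale the differences were -1.29 (95% counting interval -1.32 to -1.27) and -2.33 (-2.36 to -2.30). Counting intervals here and below are exact binomial intervals from estimated reads, and cover counting error only.

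Per kilobase, Lars2 exceeded the next synthetase 4.09-fold in WT BL, where that was Nars, and 4.04-fold in KO BL, where it was Sars. In WT SD and KO SD the margin over Sars was 1.21-fold and 1.16-fold. Lars2 ranked 50 and 47 among all genes by normalised counts in WT BL and KO BL, and 263 and 472 in WT SD and KO SD. Its counts were 6.40 and 6.49 times the sum of the other 15 mitochondrial synthetases in the baseline libraries, and 2.53 and 1.497 times in the sleep-deprived ones. Among 13550 genes, 11 stood at or below its knockout difference, a number that counts Lars2 itself, 857 at or below its wildtype difference and 7 at or below both.

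In the additive model, limma with sleep deprivation and genotype as terms over the 4 libraries, Lars2 was the 1 member of 36 called for sleep deprivation, against 0.753% of all genes, and the 1 member with an unadjusted p under 0.05, against 6.13%. It fell by 1.81 on the log2 scale (95% interval -2.73 to -0.90), with a limma Benjamini-Hochberg adjusted p of 0.0177 over all genes. That model has 1 residual degree of freedom. With deposited values its error was the trend of variance over all genes. The interval and p thus do not reflect the unequal size of the Lars2 fall in the 2 genotypes. The call was lost after removal of the trends with GC content and transcript length, where the value was -1.49 and the limma adjusted p 0.393, and without the trend in variance, where the limma adjusted p was 0.243. After the correction no member was called, against 0.0221% of all genes, and 3 had an unadjusted limma p under 0.05 (Lars2, Rars2 and Vars), against 11.7%. Under the other alternatives the limma adjusted p ranged from 0.0079 to 0.041. The corrected pair values were -0.82 in wildtype and -2.17 in knockout cortex. In the authors' deposited table the false discovery rate of Lars2 was 0.206 in the knockout pair and 0.320 in the wildtype pair.

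The annotated transcript Lars2-201 has 3894 bases in 21 exons, with the coding part at bases 200 to 2905. The mitochondrial ribosomal RNAs had no alignment to it at an e-value of 1e-10. mt-Rnr2, the large rRNA, was at 204600 (WT BL), 768700 (WT SD), 189000 (KO BL) and 482900 (KO SD). mt-Rnr1, the small rRNA, was at 147300, 520800, 134400 and 337400 in the same order. Bases 3278 to 3349, past the coding part of Lars2-201, aligned at 98.6% over 72 bases to Gm15564, which had 13.3 to 13.5 normalised counts in the wildtype and 6.14 to 6.21 in the knockout libraries. A weaker alignment, of 80.1% over 196 bases, was to AA474408, at 2.32 to 8.81. Both genes stood far below Lars2 in every library. The search covered annotated transcripts only, and nuclear ribosomal RNA was not examined by name. Counts per gene do not show where reads over these stretches came from. The source of the Lars2 counts was not tested.

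The first pair, WT SD against WT BL, asks which synthetases differed after sleep deprivation in wildtype cortex. Of the 36 genes, 11 lay at least 1.5-fold apart, 7 higher and 4 lower in WT SD, against 48.6% of all genes compared, 24.5% higher and 24.1% lower. The split turned round when values were divided by library totals, with 4 higher and 7 lower, a scaling under which the median of all genes was -0.20. In the cytosolic set 2 of 20 were higher (Cars and Sars) and 1 lower (Iars), and in the mitochondrial set 5 of 16 were higher (Aars2, Ears2, Sars2, Tars2 and Vars2) and 3 lower (Iars2, Lars2 and Mars2). The median difference was 0.12 for the cytosolic and 0.08 for the mitochondrial set, against -0.04 over all genes. Division by library totals gave -0.05 and -0.09 against -0.20, so the sign of either median depends on the scaling. Both lay above the median of all genes under either scaling. After removal of the trends with GC content and transcript length the medians were 0.23 and -0.07 against 0.01, with the mitochondrial one below.

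Cars, the cysteine enzyme, was at 1003 (WT BL), 1718 (WT SD), 1212 (KO BL) and 1050 (KO SD). Sars (chr3:108424865-108445209, minus strand) was at 4294, 7344, 6058 and 4214. Both were highest in WT SD, by 0.78 (0.65 to 0.90) and 0.77 (0.72 to 0.83) over WT BL on the log2 scale, and corrected for GC content and length the differences were 0.28 and 0.75. Sars2, the mitochondrial serine enzyme (chr7:28741968-28753879, plus strand), had the highest mitochondrial difference, 1.05 (0.74 to 1.39). It was at 132 (WT BL), 275 (WT SD), 290 (KO BL) and 126 (KO SD), high in WT SD and KO BL and low in the other two.

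Iars (chr13:49682100-49734267, plus strand) and Iars2 (chr1:185284726-185329396, minus strand), the cytosolic and mitochondrial isoleucine enzymes, had the same shape. Iars was at 1583 (WT BL), 832 (WT SD), 1611 (KO BL) and 1489 (KO SD). Iars2 was at 1843, 978, 1801 and 1573. In both genes WT SD was the lowest library, well under the other 3, with wildtype differences of -0.93 (-1.06 to -0.80) and -0.91 (-1.03 to -0.79). The correction left -0.75 for Iars and -0.40 for Iars2. Mars2, the mitochondrial methionine enzyme, was at 200, 110, 164 and 172, again lowest in WT SD, with a difference of -0.85 (-1.23 to -0.50) and a corrected one of -0.42.

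**Figure D2:**
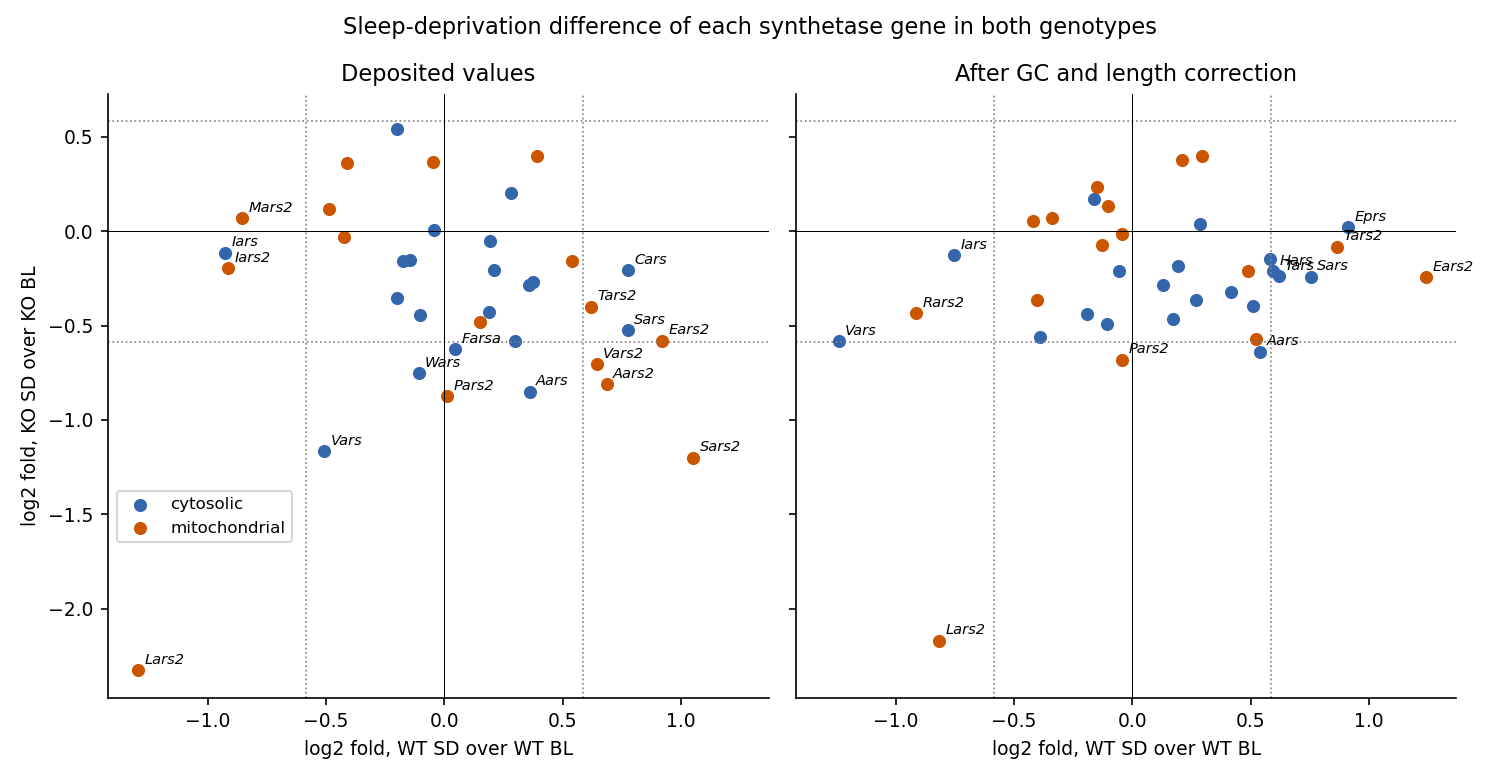
Each point is 1 synthetase gene, with its log2 fold after sleep deprivation in wildtype cortex on the x axis and in knockout cortex on the y axis, at deposited values (left) and after the GC and length correction (right). Dotted lines mark 1.5-fold, and Lars2 is the 1 member past both lines on the lower left in either panel.

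Corrected for GC content and length, 10 of 36 lay past 1.5-fold in the wildtype pair, against 36.7% of all genes, 18.5% higher and 18.2% lower. The 6 higher were Eprs (0.91), Sars (0.75), Tars (0.62), Hars, the histidine enzyme (0.60), Ears2 (1.24) and Tars2, the mitochondrial threonine enzyme (0.87). The 4 lower were Iars (-0.75), Vars, the cytosolic valine enzyme (-1.24), Rars2 (-0.91) and Lars2 (-0.82). Sars, Ears2, Tars2, Iars and Lars2 were past 1.5-fold in the same direction before and after the correction.

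In the knockout pair, KO SD against KO BL, 9 of 36 lay past 1.5-fold, all lower in KO SD, against 32.6% of all genes compared, 16.2% higher and 16.4% lower. These were Aars, Farsa, Vars and Wars in the cytosolic set and Aars2, Lars2, Pars2, Sars2 and Vars2 in the mitochondrial set. The median difference was -0.28 for the cytosolic and -0.30 for the mitochondrial set, against -0.04 over all genes, and 28 of the 36 were below 0, as were 7046 of the 13550 genes compared. The correction left 3 of 36 past 1.5-fold, all lower, against 13.1% of all genes, 5.34% in that direction, and 27 below 0, as were 6746 of 13550. Of those, 17 of 20 were cytosolic genes, with a median of -0.26, and 10 of 16 mitochondrial ones, with a median of -0.08.

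Aars, the cytosolic alanine enzyme (chr8:111033144-111057664, plus strand), was at 4623 (WT BL), 5941 (WT SD), 6742 (KO BL) and 3741 (KO SD). KO SD was the lowest library, by -0.85 against KO BL and by -0.64 after the correction. Vars (chr17:35000987-35016322, plus strand) had the lowest cytosolic value in this pair, -1.17 (-1.33 to -1.0). It was at 597, 420, 1007 and 448, with KO BL alone high, and its corrected difference was -0.58.

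Pars2, the mitochondrial proline enzyme, was at 276 (WT BL), 278 (WT SD), 330 (KO BL) and 180 (KO SD), which was the lowest library by -0.87 (-1.14 to -0.60) and, corrected, by -0.68. Wars, the tryptophan enzyme, was at 2854, 2647, 3622 and 2150, and Farsa, the alpha subunit of the phenylalanine enzyme, at 625, 646, 1017 and 659. Both were highest in KO BL. Farsb, which codes for the beta subunit of the same enzyme, was at 2263, 2585, 2156 and 2084, with a knockout difference of -0.05 beside -0.63 for Farsa, an order that turned round after the correction, at -0.39 beside -0.21. Dars, the aspartate enzyme, had the highest cytosolic value of the pair at 0.54 and 0.17 corrected, and Yars2, the mitochondrial tyrosine enzyme, the highest mitochondrial one at 0.40 both ways.

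Lars2 was the only member past 1.5-fold in the same direction in both sleep pairs, at deposited and at corrected values, against 7.91% and 5.93% of all genes. Aars2, Sars2 and Vars2 were past 1.5-fold in opposite directions, higher in WT SD and lower in KO SD, against 7.12% of all genes in either order and 3.91% in that order. Aars2, the mitochondrial alanine enzyme (chr17:45506841-45520842, plus strand), was at 372 (WT BL), 599 (WT SD), 723 (KO BL) and 413 (KO SD). Vars2, the mitochondrial valine enzyme (chr17:35655634-35667592, minus strand), was at 432, 676, 715 and 439. As in Sars2, WT SD and KO BL were the high libraries. After the correction none of the 36 was past 1.5-fold in opposite directions, against 1.06% of all genes, 0.325% in that order.

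These 3 genes had GC contents of 60.0%, 59.8% and 60.3%, the highest of the 36. The fold of the members followed GC content in each comparison, as it did over all genes. The rank correlation over the 36 genes was 0.56 in the wildtype pair, -0.76 in the knockout pair, 0.90 between the baseline libraries and -0.55 between the sleep-deprived ones. Over all 13550 genes it was 0.33, -0.71, 0.80 and -0.38. These are descriptions across genes of the same libraries, and genes are not independent replicates. After the correction the members' values were 0.23, -0.05, 0.23 and -0.18. With transcript length the members' rank correlation went from -0.03 to 0.40 in the wildtype pair and from -0.12 to -0.53 between the sleep-deprived libraries under the same correction, while over all genes it went from -0.49 to -0.03 and from 0.51 to 0.04. The sets differed little in GC content, with medians of 50.5% and 51.8%.

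**Figure D3:**
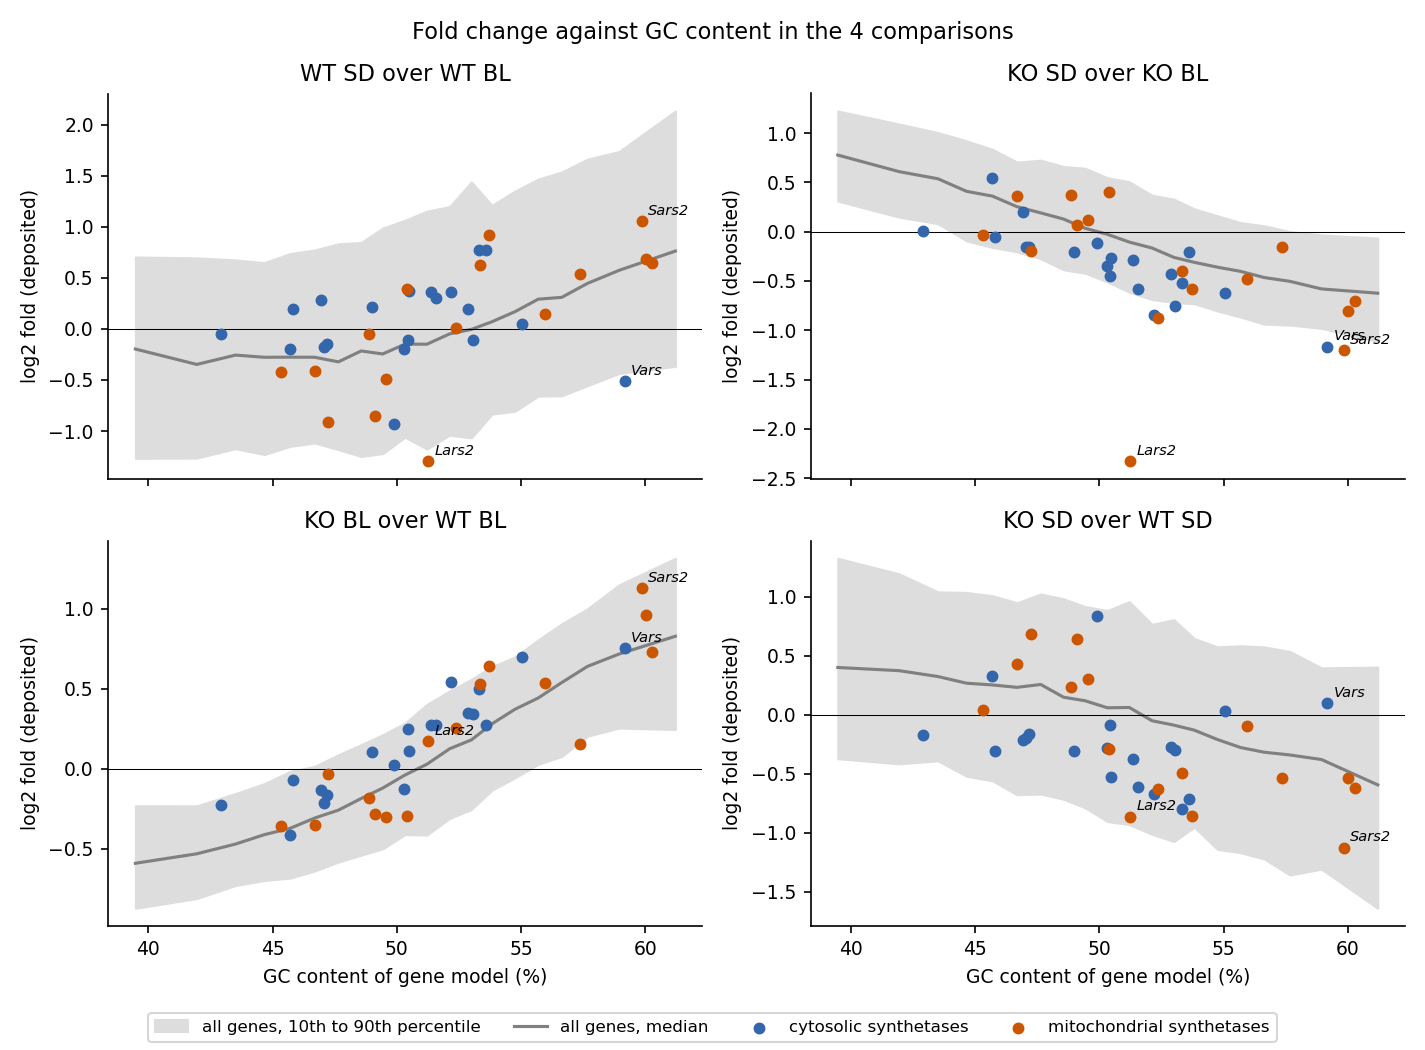
Log2 fold at deposited values against GC content of the gene model (%) in each of the 4 comparisons, with cytosolic and mitochondrial synthetases as points and all genes compared as their median (line) and 10th to 90th percentile (band). In each panel the synthetases slope the same way as the line of all genes, and Lars2 lies far under the band in the knockout sleep pair.

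The genotypes were compared at baseline and after sleep deprivation. KO BL lay past 1.5-fold of WT BL for 6 of 36, all higher, against 27.1% of all genes, 16.5% in that direction, and for none after the correction, against 6.66%. The 6 were Farsa (0.70) and Vars (0.75) in the cytosolic set and Aars2 (0.96), Ears2 (0.64), Sars2 (1.13) and Vars2 (0.73) in the mitochondrial set. The lowest values were -0.42 for Dars and -0.36 for Rars2. Lars2 differed by 0.17 (0.15 to 0.19). The medians were 0.18 and 0.16, against -0.01 over all genes.

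KO SD lay past 1.5-fold of WT SD for 12 of 36, 3 higher and 9 lower, against 40.9% of all genes, 19.8% higher and 21.1% lower, and for 12 after the correction, against 27.2%. Division by library totals without mitochondrially encoded genes, under which the all-gene median was 0.19, left 4 higher and 4 lower. Iars (0.84), Iars2 (0.69) and Mars2 (0.64) were the higher ones, and the lower ones ran from Yars (-0.61) to Sars2 (-1.13), with Sars (-0.80) the lowest of the cytosolic set. Lars2 differed by -0.86 (-0.90 to -0.83) and -1.19 corrected. Aars, Sars, Ears2, Lars2 and Sars2 were lower in KO SD past 1.5-fold before and after the correction, and Iars was higher both ways. In the additive limma model no member had an adjusted p under 0.05 for genotype, or an unadjusted p under 0.05, against 0.384% and 2.05% of all genes, and none did after the correction, against 0.00738% and 2.84%.

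The sleep differences of the genotypes lay at least 1 apart on the log2 scale for 8 members, against 35.8% of all genes, namely Aars, Aars2, Ears2, Lars2, Sars, Sars2, Tars2 and Vars2. With 1 library per group this difference could not be tested. After the correction it was 4 members (Aars, Ears2, Lars2 and Sars2), against 13.8%. Ears2, at 113 (WT BL), 214 (WT SD), 176 (KO BL) and 118 (KO SD), had a corrected difference of 1.24 in the wildtype and -0.24 in the knockout pair. Of the 36 genes, 19 stayed within 1.5-fold in all 4 comparisons, against 27.9% of all genes (21 after the correction, against 51.5%), and they span both sets, from Nars, the asparagine enzyme, at 6047 to 7825, to Wars2, the mitochondrial tryptophan enzyme, at 132 to 186. At a 2-fold threshold, 2 members lay apart in the wildtype and 3 in the knockout sleep pair, 1 between the baseline and 1 between the sleep-deprived libraries, against 25.2%, 7.28%, 4.85% and 17.8% of all genes.

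The enzymes that share an amino acid were compared as 16 pairs of a cytosolic and a mitochondrial gene, per kilobase within each library. Farsa alone stood for the cytosolic phenylalanine enzyme, and Eprs was used in both the glutamate and the proline pair. The cytosolic gene was the more abundant in 15 pairs (WT BL), 12 (WT SD), 14 (KO BL) and 15 (KO SD), with median ratios of 4.15, 4.34, 5.26 and 4.57. The highest ratios were those of Sars to Sars2, from 22.4 to 35.9, and Wars to Wars2, from 19.02 to 34.8. Iars to Iars2 varied least around its level, from 1.49 to 1.66. The ratios of Tars to Tars2 (0.952 to 1.28), Farsa to Fars2 (0.834 to 1.71) and Vars to Vars2 (0.672 to 1.52) lay on both sides of 1. Farsb, left out of the pairs, was above Fars2 in every library. Per kilobase, Farsb was at 1081 (WT BL), 1235 (WT SD), 1030 (KO BL) and 996 (KO SD), and Fars2 at 283, 411, 315 and 282. The leucine pair alone was reversed in every library, with Lars at 0.033 of Lars2 (WT BL), 0.073 (WT SD), 0.026 (KO BL) and 0.119 (KO SD). Lars itself was at 1550, 1400, 1386 and 1247 normalised counts, within 1.5-fold throughout at these deposited values. The larger ratios in the sleep-deprived libraries thus went with the lower values of Lars2. After the GC and length correction Lars was past 1.5-fold in KO SD over WT SD, at -0.61.

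**Figure D4:**
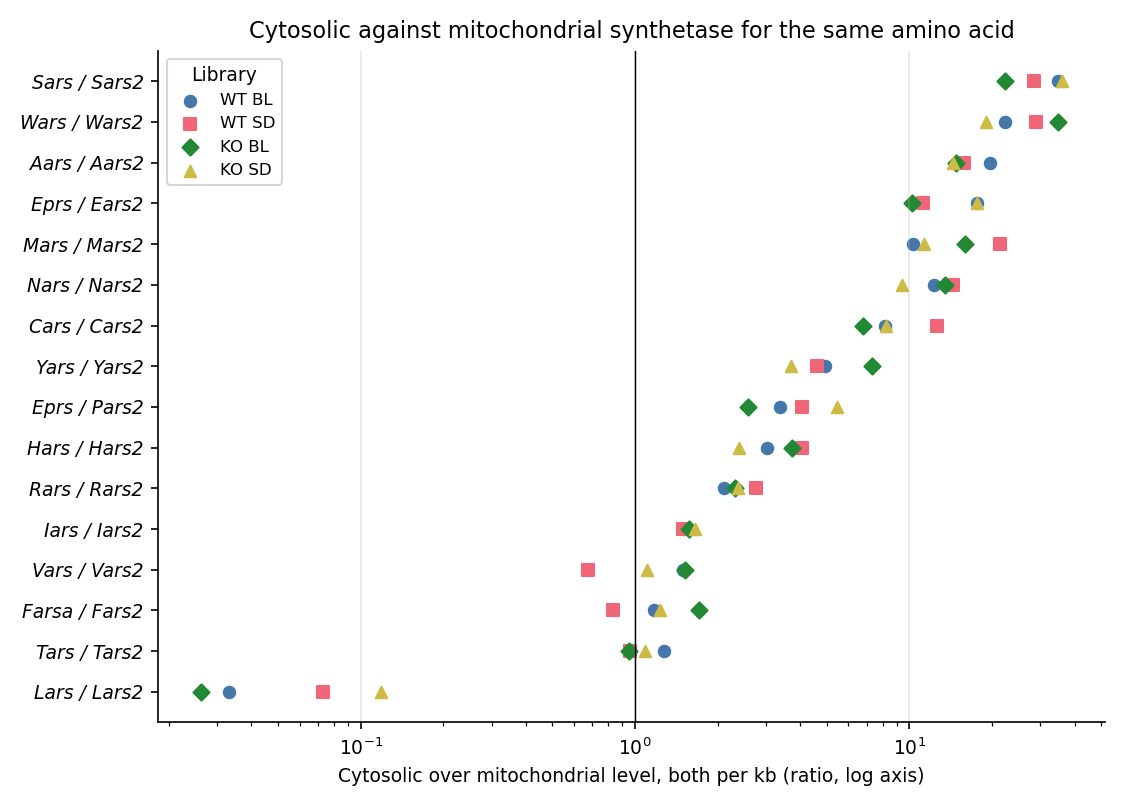
Ratio of the cytosolic to the mitochondrial gene for each of 16 amino acid pairs, per kilobase of transcript (log axis), with 1 point per library. Only the Lars to Lars2 ratio is below 1 in all 4 libraries, from 0.026 to 0.119.

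Within the cytosolic set, the 8 genes of the multi-synthetase complex (Dars, Eprs, Iars, Kars, Lars, Mars, Qars and Rars) had medians of -0.07 in the wildtype and -0.13 in the knockout pair. The 12 others had medians of 0.20 and -0.44, against -0.04 over all genes in either pair. All 12 were below 0 in the knockout pair, beside 5 of the 8 and 7046 of 13550 genes. After the correction 11 of 12 were, beside 6 of the 8 and 6746 of 13550 genes. The corrected knockout medians were -0.16 for the 8 and -0.32 for the 12. The scaffold genes are Aimp1, Aimp2 and Eef1e1. Past 1.5-fold, 2 of 3 were higher in the wildtype pair, against 24.5% of all genes, and 1 in the knockout pair, against 16.2%. Aimp1 was at 1379 (WT BL), 2772 (WT SD), 1362 (KO BL) and 1648 (KO SD). Eef1e1 was at 841, 1378, 615 and 1179, higher in the sleep-deprived library of each genotype by 0.71 and 0.94, and by 0.47 and 0.27 after the correction. Aimp2 was at 593, 875, 816 and 630. All 3 had their highest deposited values in WT SD, but corrected wildtype differences were 0.77 for Aimp1 and -0.07 for Aimp2.

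Of 34 genes of the integrated stress response and amino acid response, 29 were compared. In the wildtype pair 8 were higher and 3 lower past 1.5-fold around a median of 0.12, against 24.5% and 24.1% of all genes, and in the knockout pair 5 were higher and 7 lower around -0.21, against 16.2% and 16.4%. Corrected, 5 were higher and 7 lower in the wildtype pair, against 18.5% and 18.2% of all genes. In the knockout pair 3 were higher and 2 lower after the correction, against 1055 and 723 of 13550 genes. Those with the most extreme sleep differences were Ddit3, the gene of the stress factor CHOP (2.21 in wildtype and 0.38 in knockout), Nupr1, a stress-induced chromatin protein (2.05 and 0.67), Cebpb, a C/EBP factor (1.78 and -0.70), and Aldh1l2, a mitochondrial folate enzyme (-1.49 and 0.26). Their corrected wildtype values were 1.40, 1.76, 0.33 and -1.15, so Cebpb was no longer past 1.5-fold.

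Atf4, added to these because the element searched above is bound by its product, was at 3786 (WT BL), 8541 (WT SD), 3647 (KO BL) and 4824 (KO SD). It was highest in WT SD, by 1.17 over WT BL and 1.07 corrected, and in knockout cortex the difference was 0.40 and 0.75 corrected. Of the 5 synthetases with a C/EBP-ATF element, the wildtype and knockout differences were 0.36 and -0.85 for Aars, -0.20 and -0.35 for Gars, the glycine enzyme, -0.93 and -0.11 for Iars, 0.21 and -0.20 for Tars, and 0.30 and -0.58 for Yars, the tyrosine enzyme. Corrected, they were 0.54 and -0.64 for Aars, 0.13 and -0.28 for Gars, -0.75 and -0.12 for Iars, 0.62 and -0.24 for Tars, and 0.17 and -0.46 for Yars. None of the 5 was past 1.5-fold higher in a sleep pair at deposited values, and Tars alone was after the correction, in the wildtype pair. Asns, the asparagine synthetase gene and an ATF4 target, was at 4613, 3696, 4210 and 2948, lower in both sleep-deprived libraries. Its differences were -0.32 and -0.51 at deposited and -0.73 and -0.58 at corrected values. Slc1a5, Aldh18a1, Pycr1, Chac1, Slc6a9, Sesn2 and Slc7a5 were likewise lower in both pairs, at deposited and at corrected values. Other genes of the list went the other way. Psat1, Psph, Cth and Cebpg, like Atf4, Ddit3 and Nupr1, were higher in both pairs, at deposited and at corrected values. Of the 29 genes, 15 were above 0 and 13 below in the wildtype pair, and 12 and 17 in the knockout pair. Over all genes these were 6548 and 6997, and 6494 and 7046. Corrected, the list stood at 16 and 13, and 19 and 10, beside 6888 and 6662, and 6804 and 6746.

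**Figure D5:**
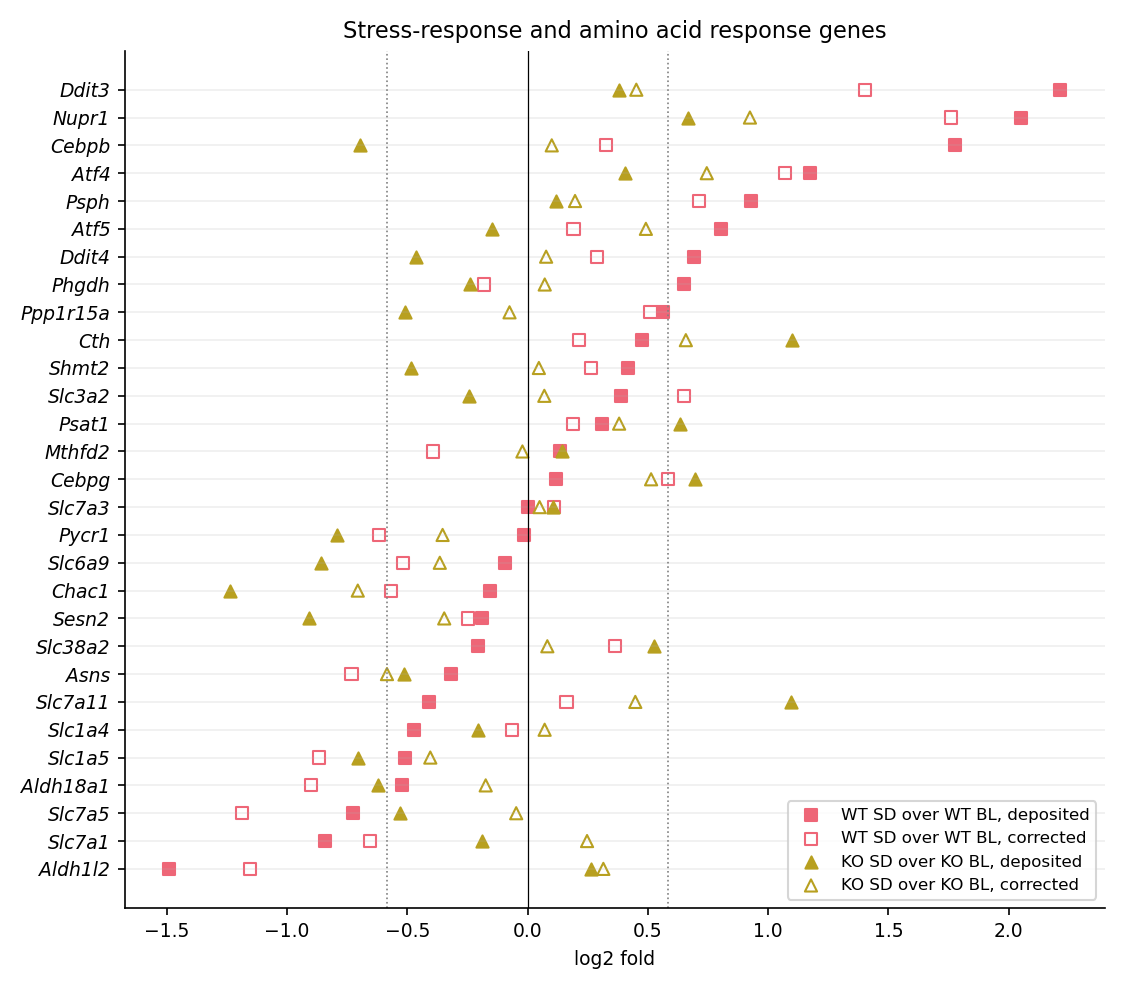
Log2 fold after sleep deprivation of the compared genes of the integrated stress response and amino acid response list, in the wildtype and the knockout pair. Filled markers are deposited values and open markers values after the GC and length correction. At deposited values Ddit3, Nupr1 and Cebpb lie highest in the wildtype pair, with values of 2.21, 2.05 and 1.78.

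The other lists around the synthetases are read against the same shares of all genes. At deposited values these are 24.5% higher and 24.1% lower in the wildtype and 16.2% and 16.4% in the knockout pair. Corrected counts are read against 18.5% higher and 18.2% lower in the wildtype pair. In the knockout pair they are read against 1055 higher and 723 lower of 13550 genes. Of 10 cytosolic elongation factor genes, 5 were higher and 1 lower past 1.5-fold in WT SD around a median of 0.62, and corrected 3 were higher and 2 lower around 0.18. Eef1d (1.94, corrected 1.36), Eef1b2 (1.39 and 0.67) and Eef1g (1.21 and 0.71), subunits of the exchange factor complex, were among the higher ones, and Gspt1, a release factor, was lower (-1.16, corrected -1). In the knockout pair 1 was higher and 1 lower around -0.04, and corrected 1 was higher and 0 lower around 0.06.

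Of 38 genes of tRNA transcription and maturation, 11 were higher and 7 lower in wildtype cortex, 7 and 7 corrected. In knockout cortex 4 were higher and 6 lower, 1 and 1 corrected. Rpp21 stood at 2.39 (corrected 0.67), Pop5 at 1.89 (0.72) and Gtf3c3 at -1.81 (-1.36) in the wildtype pair. The symbol Rpp14 belongs to 2 identifiers, one with 107 counts in WT BL and 21.4 in WT SD (-2.27) and one with 1379 and 1199 (-0.20). Of 16 genes of eIF2 kinases and eIF2 regulation, 3 were higher and 3 lower in wildtype cortex, 3 and 1 corrected. In knockout cortex 5 were higher and 1 lower, but 0 and 1 corrected. Eif2b4 and Eif2b2, subunits of the guanine exchange factor of eIF2, stood at 1.45 and 1.11 in the wildtype pair, and at 0.80 and 0.08 after the correction.

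Of 15 genes of mitochondrial translation and aminoacyl-tRNA partners, 4 were higher and 2 lower in the wildtype pair, 0 and 2 corrected. In the knockout pair 3 were higher and 0 lower, 1 and 0 corrected. Tsfm, an elongation factor, stood at 1.37 (corrected 0.47) and Mtif2, an initiation factor, at -1.08 (-1.09) in wildtype cortex. Of 19 genes of mitochondrial tRNA processing and modification, 6 were higher and 2 lower in wildtype cortex, 5 and 4 corrected. In knockout cortex 3 were higher and 2 lower, 1 and 0 corrected. Qtrt1, which takes part in making queuosine, was the most extreme of these at 1.45 in wildtype cortex (corrected 0.91). Of 9 synthetase-like, editing and peptidyl-tRNA genes, 5 were higher and 1 lower in the wildtype pair around a median of 0.62, and corrected 3 were higher and 1 lower around 0.06. Deposited wildtype differences of that list ran from -0.83, for Tarsl2, a paralogue of Tars, to 1.14. Corrected ones ran from -0.67 to 1.36, with Tarsl2 at -0.48. No gene of that list was past 1.5-fold in the knockout pair, at deposited or at corrected values. No gene of these lists had an adjusted p under 0.05 for sleep deprivation in the additive limma model.

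Of the 36 members, 13 share exon sequence with another annotated gene, so that their reads are less sure, and whether the counting used strand is not given in the sources used here. Mars, the cytosolic methionine enzyme, overlaps the end of Ddit3 on chromosome 10 from the opposite strand. Ddit3 was at 466 (WT BL), 2167 (WT SD), 626 (KO BL) and 813 (KO SD), while Mars was at 1264, 1442, 1607 and 1193 highest in KO BL. Hars and Hars2, which stand head to head on chromosome 18, overlap each other. Hars was at 3428, 4442, 3707 and 3081 and Hars2 at 730, 707, 643 and 831, so that Hars was highest and Hars2 second lowest in WT SD. The others are Cars, Nars2, Fars2, Farsb, Iars2, Yars, Ears2, Aars, Vars2 and Cars2. Lars2, Sars, Sars2, Iars, Vars and Pars2 are not among them.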

How the data were processed

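The members, lists and motifs were chosen with earlier results of these data known. The expression signal that the authors deposited is an estimated count per gene divided by 1 factor per library, judged from the values, and is called normalised counts. RSEM 1.2.19, edgeR and the builds mm10 and GRCm38 are named, without their roles, in the submitters' processing notes. The deposited log2 ratios, p-values and false discovery rates are the authors' own, made without replicates. GC fraction and transcript width are as deposited by the authors. The widths of many members are not whole numbers, and how they relate to the transcripts expressed in cortex was not tested. Levels and ratios per kilobase depend on them. The aligner is not given in the sources used here. One cell that had turned into a date was read from another table, and the tables did not otherwise differ.

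Fold changes are log2(value + 1), which understates differences of low genes. Genes with a mean of 50 or more were compared, and 1.5-fold counted as a difference. One read was worth 0.878 to 1.25 normalised counts, and 71.0% to 77.3% of low values came out whole within 0.05 read, so no count test was run. For the correction, the deviation of each library from the 4-library mean was fitted on GC content and log10 length by symmetric loess (degree 2, span 0.3) and the fit subtracted. Limma 3.58.1 (R 4.3.3, trend variance) was fitted to all genes. Its prior had infinite degrees of freedom with deposited values, where the variance is thus that of the trend, and 6.28 with corrected ones. The fits were tested on simulated data with the same 2-fold change in both genotypes and noise of 0.2 on the log2 scale. There the additive model missed such changes at deposited values, so that a lack of calls at deposited values carries little weight. It recovered most of them at corrected values. The real corrected libraries differed more than the simulated ones, with 36.7% and 13.1% of genes past 1.5-fold in the wildtype and knockout sleep pairs. That recovery cannot be carried over to these libraries. Alternatives were pseudocounts of 0.5 and 5, no minimum mean, division by library totals, a 2-fold threshold, and leaving out Lars2 or members that share exons.

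Every member is accounted for. Described in full were Lars2, members past 1.5-fold in the same direction in both sleep pairs, and the highest and lowest of each set in each comparison. In other lists, up to 4 genes of largest sleep difference were named. Atf4 and Asns were added for their link to the element searched. Promoters were from RefSeq, exon overlap from GENCODE M21, and alignments from blastn 2.17.0. The sequences around further matches are not reported here.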

Additional observations from a re-analysis of the deposited data

Results flagged for a closer look

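In 3 mitochondrial synthetase genes, sleep deprivation went with a higher value in wildtype and a lower value in knockout cortex, past 1.5-fold each way. The knockout minus the wildtype difference on the log2 scale was -2.25 for Sars2, -1.49 for Aars2 and -1.35 for Vars2. With 1 library per group the difference between the genotypes was not tested. Corrected for GC content and length, the wildtype and knockout differences were 0.52 and -0.57 for Sars2, 0.49 and -0.21 for Aars2, and -0.13 and -0.07 for Vars2. The part of GC content in the pattern was not tested beyond this.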

How the results depend on the processing

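No paired analysis was possible because each group had 1 library and the labels give no replicate numbers. After the GC and length correction the number of members past 1.5-fold went from 9 to 3 in the knockout sleep pair and from 6 to 0 between the baseline libraries, and the sleep call of the additive model from 1 to 0, as it did without the variance trend. The correction moved the cytosolic median to 0.23 in the wildtype sleep pair and to -0.45 between the sleep-deprived libraries, and the mitochondrial median to -0.077 in the knockout sleep pair and to -0.072 between the sleep-deprived libraries. Among values past 1.5-fold at deposited values, it reversed Vars2 in the wildtype sleep pair (-0.13) and between the baseline libraries (-0.055). Values within 1.5-fold also changed sign, such as Lars (-0.15 to 0.42) and Nars (-0.18 to 0.27) in the wildtype sleep pair and Fars2 in the knockout sleep pair (-0.16 to 0.38) and between the baseline libraries (0.16 to -0.42). Division by library totals, without or with mitochondrially encoded genes, moved the cytosolic wildtype median to -0.048 or -0.049, and without those genes the cytosolic median between the sleep-deprived libraries to -0.10. Without the members that share exons, 7 were past 1.5-fold in the wildtype sleep pair and 6 between the sleep-deprived libraries, with cytosolic medians of -0.11 in the wildtype sleep pair and 0.065 between the baseline libraries. At 2-fold the counts were 2 and 3 in the wildtype and knockout sleep pairs, 1 at baseline and 1 after sleep deprivation. Of 144 single values, the correction moved 93, total scaling 41 and scaling without mitochondrially encoded genes 50. The causes were not tested. Depth was no limit for Lars2, while a gene such as Ears2 or Sars2, with few reads, has wide counting intervals.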
